A study of Rattus norvegicus with 6 samples.

Results

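The genes described here are the integrins, the laminins and nidogens, the matrix glycoproteins that integrins bind, and the plaque proteins that tie integrins to actin. They were chosen by gene symbol, with earlier results of these data known, and 47 of the 17273 genes in the deposited table matched. Matches were 12 integrin alpha chains, 6 integrin beta chains, 11 laminins and nidogens and 11 adhesion plaque genes. The other 7 were genes for fibronectin, tenascin C, thrombospondins and vitronectin. The cells came from the nucleus pulposus, the soft core of the disc between vertebrae, of wild-type male rats of the Sprague Dawley strain, and all were grown in DMEM with fetal bovine serum. In the lactate group (3 libraries) they received 10 mM lactate for 8 h, and in the control group (3 libraries) they received no treatment. No label ties a library to a culture or an animal, so p-values measure the spread between these libraries only, which may be technical. The age of the rats and the form of the lactate (acid or salt) are not stated.

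Integrins are receptors made of an alpha and a beta chain that cross the cell membrane. Outside the cell they bind collagens, laminins, fibronectin and other matrix proteins, and inside the cell the tail of the beta chain is bound by talins and kindlins, which recruit integrin-linked kinase, PINCH, parvins, paxillin, focal adhesion kinase, vinculin and zyxin and so join the matrix to actin. Laminins are trimers of an alpha, a beta and a gamma chain that, bridged by nidogens to other proteins, form the sheet-like basement membrane. Cells of the young nucleus pulposus are known for a laminin-containing matrix around them and for attaching to it through integrins.

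Genes of the laminin matrix and genes of the plaque moved apart in the lactate libraries. With the libraries scaled by TMM factors, 8 of 9 laminins and nidogens and fibronectin were higher. In the plaque inside the cell 8 of 11 genes were lower. Among all tested genes 31.4% were higher and 34.6% lower. Fibronectin was called lower (−0.42) with a trend on gene level removed. Integrin alpha chains and thrombospondins went both ways. The sum of FPKM over the laminins and nidogens was 1.62, 1.52 and 1.44 times that of the plaque genes in lactate libraries 1, 2 and 3, against 0.409, 0.410 and 0.398 in control libraries 1, 2 and 3. FPKM is the authors' count per transcript length and library total, so these ratios within a library do not depend on how libraries are scaled to each other. The ranges of the groups lie far apart. Among single genes, Thbs1 (thrombospondin 1) fell to 0.183 times its control level, while Lama5 rose more than any other member tested.

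Each gene was tested on its counts with edgeR's quasi-likelihood test, and it is called higher or lower at a Benjamini-Hochberg adjusted p under 0.05 over all 13747 genes that passed the filter on low counts. Of the 47 members, 41 passed that filter, of which 20 were called higher, 15 lower and 6 were not called. Over all tested genes 66% were called, 31.4% higher and 34.6% lower, so the 48.8% of members that were higher lies above that background and the 36.6% that were lower lies close to it. In 36 of the 41 the lactate and control libraries did not overlap, against 72.2% of all tested genes. The median log2 fold change (lactate over control) was 0.28 over the tested members and −0.10 over all tested genes. Members passed the filter partly because of their level in one group, so these counts describe the 41 and not all 47. In the authors' deposited table, 18 members were higher and 15 lower at the authors' adjusted p under 0.05, and 41 of the 41 members tested here had the same sign in both.

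Directions depended on how the libraries were scaled. Libraries held 30291357 to 35512356 counts in the lactate group and 33584741 to 38989574 in the control group, and replicates differed by more than sampling noise. TMM factors, which assume that most genes keep their level, were 0.702 to 0.806 in lactate and 1.325 to 1.356 in control libraries. Without them the median log2 fold change of all genes was −0.955, so changes below are given relative to the bulk of genes. With library totals alone, 11 members were higher and 23 lower, against 12.6% and 61.7% of all genes. Fold changes also followed the level of a gene: with genes split by level into 5 groups of equal size, the median in the top group was 0.55 with 59.2% higher, and 28 of the 41 tested members were in it. With this trend on level removed, 11 members were higher and 21 lower, against 32.2% and 30.8% of all genes.

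**Figure D1:**
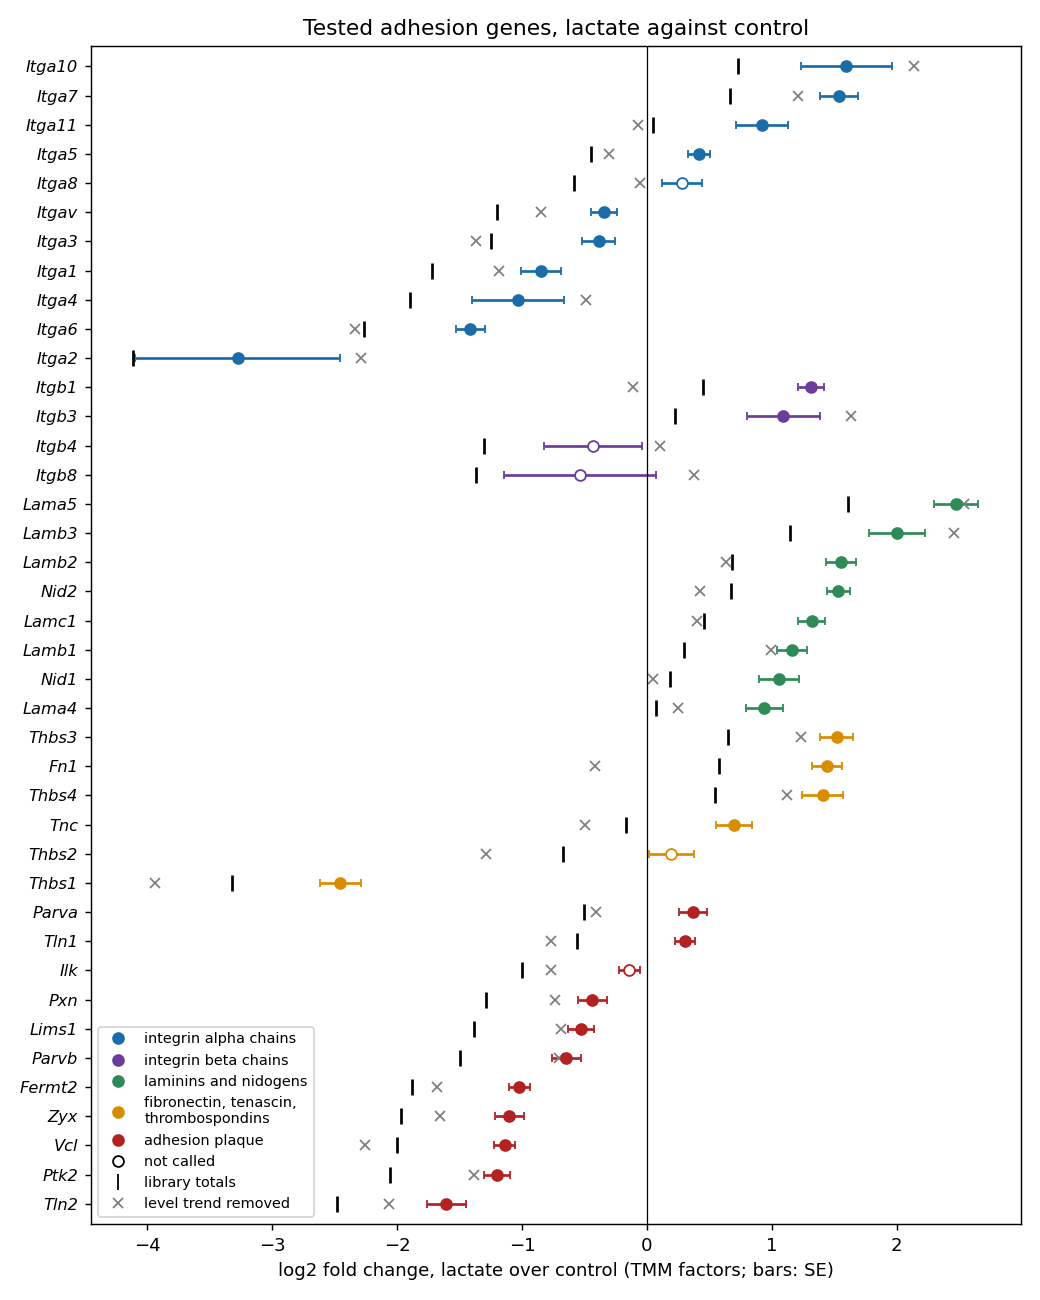
Log2 fold change of lactate over control (x axis) for 40 of the 41 tested members, by role, with TMM factors (circles, bars are SE, open where not called), with library totals (black ticks) and with the trend on level removed (grey crosses). The 8 laminins and nidogens called higher sit to the right of 0 in all 3 settings, while of the plaque genes Tln1 and Parva are right of 0 with TMM factors and left of it in the other two settings, and the other 9 are left of 0 in all 3.

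Of the 9 laminins and nidogens tested, 8 were higher, 0 lower and 1 was not called, and their median log2 fold change was 1.32. The shares over all tested genes were 31.4% higher and 34.6% lower. With library totals 6 of the 9 were higher and 1 lower, with a median of 0.45, against 12.6% and 61.7% of all genes. With the level trend removed 6 were higher and 0 lower, with a median of 0.42, against 32.2% and 30.8% of all genes. Of the 9, 5 were in the top one of the 5 level groups, in which 59.2% of genes were higher. Lama5, a laminin alpha chain of many basement membranes, was at 48.9, 60.6 and 43.6 CPM in lactate libraries 1, 2 and 3, against 8.37, 8.17 and 11.0 CPM in control libraries 1, 2 and 3. CPM here are counts brought to a common total with TMM factors. Every lactate library was above every control library, and the log2 fold change was 2.48 ± 0.18 (SE; edgeR adjusted p = 7.0e-06). Lama4, the alpha chain of laminins around mesenchymal and vascular cells, rose by 0.94 ± 0.15 (edgeR adjusted p = 0.00053), but missed the threshold with library totals (0.070) and with the level trend removed (0.25).

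The beta and gamma chains that partner these alpha chains rose with them. Lamb2 was at 770, 835 and 622 CPM in lactate libraries, against 262, 248 and 251 CPM in control libraries, and rose by 1.55 ± 0.12 (edgeR adjusted p = 1.0e-05). Lamc1, the gamma chain shared by most laminins, was at 722, 720 and 613 CPM in lactate libraries and 247, 281 and 296 CPM in control libraries, and rose by 1.32 ± 0.11 (edgeR adjusted p = 1.4e-05). The groups did not overlap for either gene. Lamb1, the other widely used beta chain, rose by 1.16 ± 0.12 and was at 0.30 with library totals, where it was still called, though not in either fit on FPKM (0.25 and 0.28). The linker Nid2 rose by 1.53 ± 0.09 (edgeR adjusted p = 3.7e-06), with 1757, 1527 and 1544 CPM in lactate libraries against 550, 544 and 576 CPM in control libraries. Nid1 rose by 1.05 ± 0.16, but missed the threshold with library totals (0.19) and with the level trend removed (0.051).

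Lamb3, a beta chain known from the laminin of epithelia, rose at a low level. Lamb3 was at 13.4, 11.9 and 14.2 CPM in lactate libraries, against 3.32, 2.38 and 4.15 CPM in control libraries, and rose by 2.00 ± 0.23 (edgeR adjusted p = 7.8e-05). The groups did not overlap, and it stayed called higher with library totals (1.15) and with the level trend removed (2.46). Of the 7 epithelial markers listed, 4 were in the table, each with under 10 counts over all libraries, and none of them was tested. Lama2 had 6, 2 and 0 counts in lactate libraries and 8, 8 and 2 in control libraries, and Lamc3 had 0, 0 and 6 counts in lactate libraries and 0 in each control library, so neither was tested.

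Among the laminin chains in the deposited table, which lacks Lama1 and Lama3, the same few chains dominated in both groups. As a share of the summed FPKM of laminin chains, Lamc1 held 38.4% ± 1.78 in lactate and 38.8% ± 2.45 in control libraries (SD, n = 3 each; exact two-sided permutation p = 0.80), and the difference of −0.395 percentage points changed sign when lactate replicate 2 (0.571) or control replicate 3 (0.677) was left out. Lamb2 held 40.3% ± 0.816 in lactate and 35.0% ± 1.92 in control libraries, and Lama4 15.0% ± 1.27 in lactate and 19.9% ± 1.15 in control libraries. For both the groups did not overlap, and the exact two-sided permutation test gave p = 0.10 for each, the smallest value that 3 against 3 libraries allow. The ratio of Lama5 to Lama4 was 0.0891 to 0.101 in lactate libraries and 0.0271 to 0.0404 in control libraries, so Lama4 was the more abundant of the pair in each library.

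**Figure D2:**
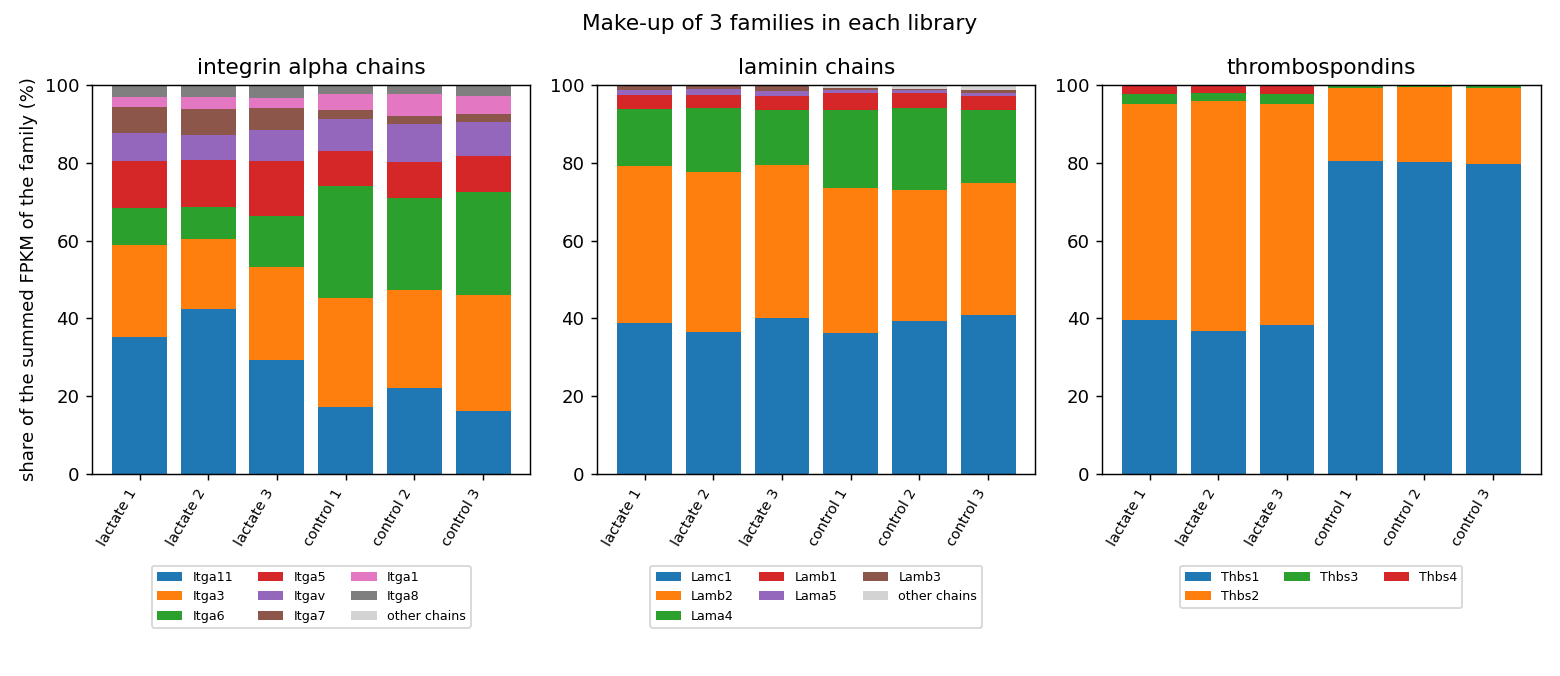
Share of the summed FPKM of 3 families held by each chain (y axis, percent), in each of the 3 lactate and 3 control libraries (x axis). Thbs1 holds 36.7 to 39.6% of the FPKM of Thbs1 to Thbs4 in lactate libraries and 79.8 to 80.5% in control libraries. Itga6 holds 8.31 to 13.0% of integrin alpha FPKM in lactate libraries and 23.7 to 28.8% in control libraries.

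Fibronectin, tenascin C and the thrombospondins are secreted glycoproteins of the matrix, and their genes did not move as one group. Of the 6 tested genes of this role 4 were higher, 1 (Thbs1) lower and 1 (Thbs2) not called, and with library totals 3 were higher and 2 lower, while with the level trend removed 2 were higher and 4 lower. All-gene shares, higher and lower, were 31.4% and 34.6%, with library totals 12.6% and 61.7%, and without the level trend 32.2% and 30.8%. Fn1, fibronectin, was the most abundant member, at 45560, 43740 and 37320 CPM in lactate libraries, against 14200, 16850 and 15660 CPM in control libraries. It rose by 1.44 ± 0.12 (edgeR adjusted p = 1.4e-05) and by 0.57 with library totals, but it was called lower (−0.42) with the level trend removed. It took 3.01 to 3.29% of all counts in lactate libraries and 1.93 to 2.23% in control libraries, with no overlap.

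Thbs1, a secreted inhibitor of vessel growth and activator of latent TGF-beta, was at 1930, 2162 and 1515 CPM in lactate libraries, against 8654, 11570 and 10470 CPM in control libraries. It fell by 2.45 ± 0.16 on the log2 scale (edgeR adjusted p = 5.5e-06), to 0.183 times the control level, and the groups lay far apart. It was the member with the largest fall among those with a mean of at least 1 CPM. It was lower in all 19 alternatives, at −3.32 with library totals and −3.94 with the level trend removed. Thbs1 took 0.122 to 0.152% of all counts in lactate libraries and 1.18 to 1.53% in control libraries.

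The related Thbs2 was at 4472, 5766 and 3712 CPM in lactate libraries and 3344, 4598 and 4234 CPM in control libraries, with overlapping groups, and was not called (0.20 ± 0.18, edgeR adjusted p = 0.35). Its call was lower with library totals (−0.67) and without the level trend (−1.28), and higher with the length trend removed (0.76). The make-up of the family, taken here as Thbs1 to Thbs4, turned over. Thbs1 held 38.2% ± 1.44 of thrombospondin FPKM in lactate and 80.2% ± 0.354 in control libraries, and Thbs2 held 57.1% ± 1.88 in lactate and 19.2% ± 0.362 in control libraries (SD, n = 3 each; exact two-sided permutation p = 0.10 for both). Among Thbs1 to Thbs4, Thbs2 was therefore the leading transcript in each lactate library and Thbs1 in each control library. The 2 members matched here from the other branch of thrombospondins, whose proteins form pentamers, both rose. Thbs3 was at 113, 114 and 84.2 CPM in lactate libraries and 35.7, 37.0 and 36.0 CPM in control libraries, and rose by 1.52 ± 0.14 (edgeR adjusted p = 2.1e-05). Thbs4 was at 109, 109 and 86.2 CPM in lactate libraries and 30.9, 38.3 and 45.5 CPM in control libraries, and rose by 1.41 ± 0.16 (edgeR adjusted p = 9.5e-05). Both stayed called higher with library totals (0.65 and 0.54) and with the level trend removed (1.23 and 1.12).

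Tnc, tenascin C, a glycoprotein of growing and healing matrix that loosens attachment to fibronectin, was at 1672, 1841 and 1409 CPM in lactate libraries and 829, 1054 and 1154 CPM in control libraries. It rose by 0.70 ± 0.15 with TMM factors (edgeR adjusted p = 0.0028), but missed the threshold with library totals (−0.17) and was called lower with the level trend removed (−0.50). Vtn, vitronectin, which is made mainly by the liver, had 4, 2 and 0 counts in lactate libraries and 0 in each control library and was not tested. A count of 0 in a library allows up to 3 counts, which is 0.105 to 0.141 CPM in lactate and 0.0581 to 0.0656 CPM in control libraries, for counting error only.

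The ratio of Fn1 to Thbs1 FPKM, examined after the values were seen, was 10.1, 8.64 and 10.5 in lactate libraries 1, 2 and 3, against 0.700, 0.622 and 0.638 in control libraries 1, 2 and 3. Per length, Fn1 was thus the more abundant of the pair in each lactate library and Thbs1 in each control library.

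**Figure D3:**
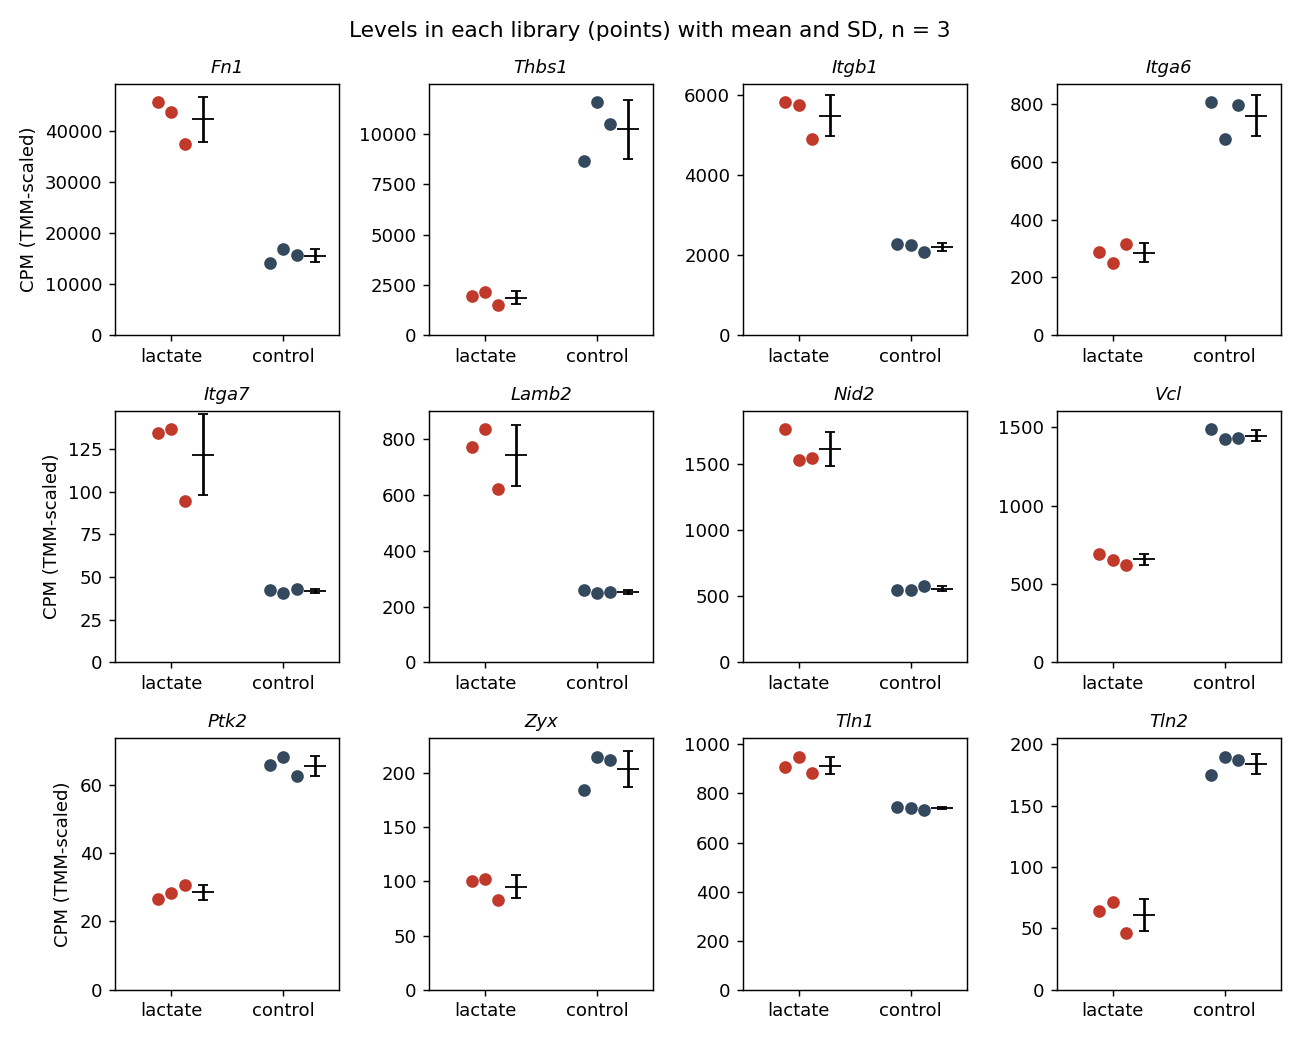
CPM scaled with TMM factors (y axis, from 0) of 12 members in the 3 lactate (left, red) and 3 control (right, blue) libraries, with the mean and SD beside the points. The groups do not overlap in any of the 12, with Fn1, Itgb1, Itga7, Lamb2, Nid2 and Tln1 higher in lactate libraries and the other 6 lower, where Tln1 is below 0 with library totals (−0.56) and with the level trend removed (−0.77) and Fn1 and Itgb1 are below 0 with the level trend removed.

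Of the 11 integrin alpha chains tested, 4 were higher, 6 lower and 1 was not called, and with library totals 1 (Itga7) was higher and 8 were lower. The all-gene shares were 31.4% higher and 34.6% lower, and with library totals 12.6% and 61.7%. The alpha chain sets what an integrin binds, and with TMM factors the chains split within each class of ligand. With library totals and with the level trend removed, Itga5 and Itgav of the RGD-binding class were both called lower. No collagen-binding chain was called higher with library totals. Among the laminin-binding chains, Itga6 was at 290, 251 and 315 CPM in lactate libraries and 806, 678 and 795 CPM in control libraries, and fell by 1.41 ± 0.12 (edgeR adjusted p = 1.4e-05). Itga7, known best as the laminin receptor of muscle, was at 134, 136 and 94.3 CPM in lactate libraries and 42.3, 40.5 and 42.8 CPM in control libraries, and rose by 1.54 ± 0.15 (edgeR adjusted p = 3.4e-05). Neither gene's groups overlapped, and both kept their call and direction in all 19 alternatives. Itga3, which pairs with Itgb1 in a receptor of laminins, was called lower (−0.39 ± 0.13, edgeR adjusted p = 0.027). It lost the call without lactate replicate 2 (0.12) or 3 (0.076) or control replicate 1 (0.054) or 3 (0.11), and was at 0.072 with the length trend removed. The ratio of Itga7 to Itga6 FPKM was 0.448 to 0.812 in lactate libraries and 0.0791 to 0.0884 in control libraries, so Itga6 was the more abundant of the pair in each library.

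Among the collagen-binding chains, Itga11, a receptor of fibrillar collagen on mesenchymal cells, was at 815, 991 and 549 CPM in lactate libraries and 375, 491 and 378 CPM in control libraries. It rose by 0.92 ± 0.21 (edgeR adjusted p = 0.0040), with no overlap, but missed the threshold with library totals (0.046) and with the level trend removed (−0.070). Itga10, the collagen receptor of chondrocytes, was at 3.31, 4.18 and 2.83 CPM in lactate libraries and 1.11, 0.678 and 1.61 CPM in control libraries, and rose by 1.60 ± 0.36 (edgeR adjusted p = 0.0041), though it was not called with library totals (0.73). Itga1 was at 55.6, 61.1 and 43.4 CPM in lactate libraries and 83.0, 112 and 93.3 CPM in control libraries, and fell by 0.85 ± 0.16 (edgeR adjusted p = 0.0015). Itga2, a collagen receptor known from platelets and epithelia, had 0, 4 and 2 counts in lactate libraries and 63, 28 and 29 counts in control libraries, and was called lower (−3.27 ± 0.82, edgeR adjusted p = 0.0071).

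Among the chains that bind the RGD sequence of fibronectin and vitronectin, Itga5, the main fibronectin receptor chain, was at 262, 266 and 253 CPM in lactate libraries and 182, 194 and 209 CPM in control libraries. It rose by 0.42 ± 0.09 with TMM factors (edgeR adjusted p = 0.0032), but was called lower with library totals (−0.44) and with the level trend removed (−0.30). Itgav, which pairs with several beta chains, was at 115, 105 and 102 CPM in lactate libraries and 123, 147 and 138 CPM in control libraries, and was called lower (−0.34 ± 0.10, edgeR adjusted p = 0.019). That call was lost without lactate replicate 2 (0.063) or control replicate 2 (0.080) or 3 (0.061) and with the length trend removed. Itga8, the receptor of nephronectin in kidney development, was not called (0.28 ± 0.16, edgeR adjusted p = 0.15), with overlapping groups, although it was called higher without control replicate 3 (0.47) and lower with library totals (−0.58). Itga4, a receptor of fibronectin and VCAM1 on leukocytes, is not counted in this RGD class. It was at 1.45, 0.940 and 0.629 CPM in lactate libraries and 2.21, 2.27 and 1.65 CPM in control libraries. Its lower call (−1.03 ± 0.37, edgeR adjusted p = 0.035) was lost without any one of lactate replicates 2 (0.083) and 3 (0.093) and control replicates 1 (0.096) and 2 (0.11), and with the length trend (−0.72) or the level trend (−0.49) removed. Itga9, likewise outside the RGD class, had 4, 0 and 6 counts in lactate libraries and 0, 11 and 8 in control libraries and was not tested.

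Per length, Itga3 and Itga6 held the largest shares of integrin alpha FPKM in control libraries and Itga11 in lactate libraries. Itga11 held 35.6% ± 6.56 in lactate and 18.6% ± 3.18 in control libraries, Itga6 10.3% ± 2.42 in lactate and 26.3% ± 2.54 in control libraries, and Itga3 21.9% ± 3.40 in lactate and 27.6% ± 2.40 in control libraries (SD, n = 3 each). Itga3 and Itga6 did not differ beyond their spread in control libraries. Itga5 held 12.7% ± 1.30 in lactate and 9.16% ± 0.291 in control libraries. The groups did not overlap for any of these 4 chains, and the exact two-sided permutation p was 0.10 for each, the smallest value possible. Over 4 families 10 such shares were compared, and none can pass a correction at this number of libraries.

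Transcripts of the 6 integrin beta chains matched were almost entirely Itgb1, the partner of most alpha chains. It held 99.9% of their summed FPKM in each lactate library and 99.8% in each control library. Itgb2 and Itgb5 were absent from the deposited table, so their levels are not known here. Itgb1 was at 5814, 5748 and 4887 CPM in lactate libraries and 2280, 2244 and 2091 CPM in control libraries. It rose by 1.31 ± 0.10 (edgeR adjusted p = 1.0e-05) and by 0.45 with library totals, where it was still called, but missed the threshold with the level trend removed (−0.11). Its ratio to Vcl, one of the plaque genes, was 11.1 to 12.4 in lactate libraries and 2.10 to 2.23 in control libraries. Itgb3, the beta chain of the vitronectin receptor, was at 3.54, 2.68 and 2.55 CPM in lactate libraries and 1.73, 1.28 and 1.10 CPM in control libraries, and rose by 1.09 ± 0.29 (edgeR adjusted p = 0.0098), but was not called with library totals (0.23). Itgb4, of epithelial hemidesmosomes, and Itgb8, which activates latent TGF-beta, averaged 1.29 and 0.295 CPM in lactate and 1.74 and 0.436 CPM in control libraries, with overlapping groups, and were not called. Itgb4 was called lower with library totals (−1.30) and was at 0.10 with the level trend removed. Itgb6 had 0, 3 and 0 counts in lactate libraries and 10, 12 and 5 in control libraries, and Itgb7 had 0, 5 and 2 in lactate libraries and 0, 7 and 0 in control libraries, and neither was tested.

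Inside the cell, 8 of the 11 plaque genes were lower, 2 higher and 1 was not called, with a median log2 fold change of −0.64. The 2 called higher, Tln1 and Parva, were called lower with library totals and with the level trend removed, and in each of these settings 11 of the 11 genes were lower. Among all tested genes 34.6% were lower with TMM factors, 61.7% with library totals and 30.8% with the level trend removed. Of the 11, 8 were in the top one of the 5 level groups, in which 59.2% of genes were higher. Among the proteins that bind the integrin tail, Tln1, the widely used talin, was at 907, 950 and 882 CPM in lactate libraries and 744, 740 and 734 CPM in control libraries, and was higher by 0.30 ± 0.08 with TMM factors (edgeR adjusted p = 0.0088) but at −0.56 with library totals and −0.77 with the level trend removed. Tln2, the second talin, was at 64.5, 71.3 and 46.0 CPM in lactate libraries and 175, 190 and 188 CPM in control libraries, and fell by 1.60 ± 0.16 (edgeR adjusted p = 3.7e-05). The ratio of Tln1 to Tln2 FPKM was 11.8 to 16.9 in lactate and 3.43 to 3.75 in control libraries, whatever the scaling. Fermt2, the kindlin of most adherent cells, was at 136, 133 and 128 CPM in lactate libraries and 268, 280 and 258 CPM in control libraries, and fell by 1.02 ± 0.09 (edgeR adjusted p = 1.6e-05).

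Integrin-linked kinase, PINCH and parvin form a complex that kindlins bind. Ilk, its kinase-like core, was at 159, 166 and 160 CPM in lactate libraries and 180, 177 and 177 CPM in control libraries. The groups did not overlap, yet the difference was not called (−0.14 ± 0.08, edgeR adjusted p = 0.16), and it was called lower with upper-quartile factors (−0.30), library totals (−0.9996) and the level trend removed (−0.76). Lims1, which encodes PINCH, fell by 0.52 ± 0.10 and Parvb by 0.64 ± 0.12. Parva, the parvin of higher level here, was at 320, 338 and 261 CPM in lactate libraries and 226, 245 and 242 CPM in control libraries (0.37 ± 0.11, edgeR adjusted p = 0.019). Its call was lost without lactate replicate 1 (0.077) or 2 (0.079) or control replicate 1 (0.061) or 3 (0.053), and it was at −0.50 with library totals and −0.41 with the level trend removed.

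The signalling and actin-binding members of the plaque fell. Ptk2, focal adhesion kinase, was at 26.4, 28.3 and 30.7 CPM in lactate libraries and 65.6, 68.2 and 62.4 CPM in control libraries, and fell to 0.435 times the control level (SE 0.11 on the log2 scale, edgeR adjusted p = 1.9e-05). Vcl, vinculin, which couples talin to actin under tension, was at 693, 656 and 624 CPM in lactate libraries and 1487, 1425 and 1432 CPM in control libraries, and fell by 1.14 ± 0.08 (edgeR adjusted p = 8.6e-06). Zyx, zyxin, a sensor of stretched actin, was at 100, 102 and 82.7 CPM in lactate libraries and 184, 215 and 212 CPM in control libraries, and fell by 1.10 ± 0.12 (edgeR adjusted p = 5.6e-05). These 3 and Tln2 and Fermt2 lay between −0.97 and −1.73 with each library left out in turn, and were called lower in all 19 alternatives. Pxn, the scaffold paxillin, was at 53.8, 52.6 and 58.6 CPM in lactate libraries and 71.9, 67.8 and 83.5 CPM in control libraries, and fell by 0.44 ± 0.11 (edgeR adjusted p = 0.0086), but missed the threshold with the length trend removed (−0.089).

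Transcript length set the members apart from most genes. Length, as implied by a gene's deposited counts and FPKM, had a median of 4.53 kb over the 41 tested members and 2.25 kb over all tested genes, and 38 of the 41 were in the longer part of all genes, above the median. Over all 13747 genes longer transcripts had lower fold changes (Pearson r = −0.226, Spearman rho = −0.238), and with genes split by length into 10 groups of equal size the longest group had a median of −0.60 with 20.1% higher and 52.1% lower. Over the 41 members r was 0.258 and rho 0.227, as a description, since members share libraries and some share families. The laminins and nidogens, with a median length of 5.82 kb, rose against this trend, and with it removed their median was 1.85 with 8 of 9 still called higher. The plaque genes had a median length of 3.54 kb and a median log2 fold change of −0.57 with the trend removed, with 7 lower and 2 higher. Over all members 22 were then higher and 11 lower, against 33.5% and 30.5% of all genes.

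**Figure D4:**
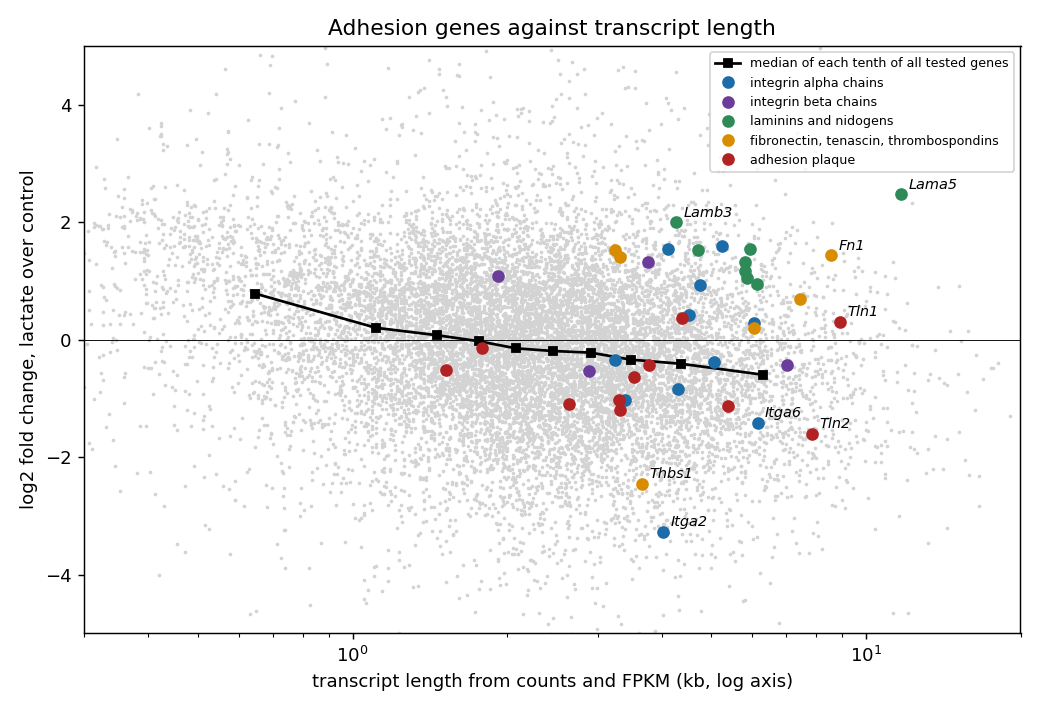
Log2 fold change of lactate over control (y axis) against transcript length in kb (x axis, log scale) for all tested genes (grey, 201 beyond the axes not drawn), with the median of each of 10 groups of genes by length (black line) and 40 of the tested members by role. The black line falls with length to −0.60 in the longest group, while Lama5, Fn1 and most laminins lie above it at long lengths and Tln2, Itga6 and Thbs1 lie below it.

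Of the members that were called, moved at least 2-fold and had a promoter in the RefSeq table used, the 2 that fell and the 2 that rose with the highest mean FPKM are shown, to set their promoters side by side. No promoter was matched for the more abundant Fn1 or for Nid2, and motifs played no part in the choice. They run from 250 bases before to 50 after the annotated start, 5′ to 3′, from RefSeq with build GRCr8, with capitals marking GGAATG on either strand, the letters bound by TEAD factors, through which YAP acts. Thbs1 (chr3:125510000-125510299, plus strand) and Vcl (chr15:3404751-3405050, minus strand) fell, and Itgb1 (chr19:73602027-73602326, plus strand) and Nid1 (chr17:93069036-93069335, plus strand) rose.
Thbs1: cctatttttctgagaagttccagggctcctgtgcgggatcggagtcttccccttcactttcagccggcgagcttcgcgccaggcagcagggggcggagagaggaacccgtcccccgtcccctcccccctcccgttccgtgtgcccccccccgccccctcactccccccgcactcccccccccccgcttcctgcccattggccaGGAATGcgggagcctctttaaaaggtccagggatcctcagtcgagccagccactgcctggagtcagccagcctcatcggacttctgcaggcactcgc
Vcl: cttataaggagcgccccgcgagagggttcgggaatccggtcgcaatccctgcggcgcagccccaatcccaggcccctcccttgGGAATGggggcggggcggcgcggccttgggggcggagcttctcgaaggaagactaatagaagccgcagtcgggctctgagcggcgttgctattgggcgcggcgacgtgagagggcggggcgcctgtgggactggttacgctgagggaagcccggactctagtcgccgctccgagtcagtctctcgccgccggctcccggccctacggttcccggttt
Itgb1: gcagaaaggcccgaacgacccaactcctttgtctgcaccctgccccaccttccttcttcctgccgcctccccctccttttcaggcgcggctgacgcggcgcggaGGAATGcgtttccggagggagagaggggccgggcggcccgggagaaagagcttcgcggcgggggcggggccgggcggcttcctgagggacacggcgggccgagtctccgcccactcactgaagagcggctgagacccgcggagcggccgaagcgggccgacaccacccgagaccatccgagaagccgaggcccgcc
Nid1: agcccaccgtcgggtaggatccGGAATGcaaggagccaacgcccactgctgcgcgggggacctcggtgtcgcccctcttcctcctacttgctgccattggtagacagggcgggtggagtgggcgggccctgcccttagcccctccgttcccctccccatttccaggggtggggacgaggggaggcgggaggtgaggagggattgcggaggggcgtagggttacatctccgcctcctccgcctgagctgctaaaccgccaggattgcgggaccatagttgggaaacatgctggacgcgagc

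A promoter was found for 35 of the 47 members, and 6 motifs were searched on both strands. A member counts if any of its promoters (38 over all members) holds the motif. The share of all is per promoter, so the units differ and member shares can be slightly raised. GGAATG was in 12 of the 35 (34.3%) and in 14.2% of all 33469 promoters, and its 12 holders included 5 genes called higher and 5 called lower. The GC box GGGCGG was in 71.4% of members and 33.1% of all promoters, and members' promoters had a median GC content of 64.2%, against 51.7% over all promoters. CAGAC, the letters bound by SMAD factors, was in 68.6% of members and 50.1% of all. TATAAA was in 11.4% of members and 14.2% of all. The AP-1 motif TGANTCA was in 0 of the 35 and 7.33% of all promoters, and the CArG box of serum response factor in 2 of 35 (Itgb6 and Lama2) and 1.64% of all. The motifs can overlap, and a match is a description of letters, not of binding.

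Other genes of the adhesion pathway are given by lists drawn up by function, with earlier results of these data known. For each list the all-gene shares to set beside it are 31.4% higher and 34.6% lower, and 12.6% and 61.7% with library totals. Of 34 other basement membrane proteins and integrin ligands tested, 26 were higher, 4 lower and 4 not called (median log2 fold change 1.15), and with library totals 16 were higher and 8 lower. Eln (elastin) rose by 2.10 ± 0.31 and Mfge8, an RGD-bearing bridge to dying cells, by 2.05 ± 0.11, while Ccn4, a Wnt-induced matricellular protein, fell by 2.51 ± 0.13 and the laminin-related Ntn4 by 2.01 ± 0.13. Of 28 actin linkers of adhesions, 6 were higher, 14 lower and 8 not called (median −0.25), and with library totals 0 were higher and 26 lower. Sorbs2 and Svil, which bind vinculin and actin, fell by 2.18 ± 0.26 and 2.11 ± 0.26. The largest rises in that list, Csrp1 (0.57 ± 0.09) and Trip6 (0.54 ± 0.13), were at −0.29 and −0.32 with library totals.

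Of 28 signalling adaptors and kinases, 7 were higher (25%), 12 lower (42.9%) and 9 not called (median −0.30, and 1 higher and 20 lower with library totals). Here too the all-gene shares are 31.4% higher and 34.6% lower, and 12.6% and 61.7% with library totals. The docking protein Nedd9 fell by 2.11 ± 0.14 and the paxillin-binding Git2 by 1.78 ± 0.18, while the GTPase Rhoa rose by 1.12 ± 0.08 (0.081 and not called with the level trend removed) and the adaptor Grb2 by 0.83 ± 0.11 (−0.017 with library totals). Of 29 regulators of integrin activity and traffic, 8 were higher, 16 lower and 5 not called (median −0.49, and 4 higher and 22 lower with library totals). Lims2, the second PINCH gene, fell by 2.23 ± 0.15 and Rsu1, a PINCH-binding protein, by 1.40 ± 0.21, while the tetraspanin Cd81 rose by 1.84 ± 0.08 and Slc3a2, the CD98 heavy chain that binds beta tails, by 1.52 ± 0.10. Of 18 other matrix receptors, 8 were higher, 7 lower and 3 not called (median 0.43, and 5 higher and 8 lower with library totals). The urokinase receptor Plaur rose by 2.64 ± 0.19 and the heparan sulfate proteoglycan Sdc4 by 1.87 ± 0.23, while the collagen receptor Ddr1 fell by 1.90 ± 0.14 and dystroglycan, Dag1, a laminin receptor, by 1.15 ± 0.15. For each of these named genes the edgeR adjusted p was at most 0.0065.

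Of the markers of the labelled cell type, Acan was well detected, with 164769 counts in lactate and 344920 in control libraries, while Col2a1 had 55 counts in lactate and 39 in control libraries, Krt19 0 in lactate and 9 in control, and Tbxt 0 in lactate and 12 in control. With TMM factors Acan was not called (log2 fold change −0.064), and its groups overlapped. In FPKM, which rest on library totals, its groups did not overlap. Acan FPKM was 259.5, 215.4 and 268.3 in lactate libraries, against 485.5, 427.6 and 498.9 in control libraries. The marker calls and CPM sums below use TMM factors only. Of the 15 nucleus pulposus markers listed, 12 were in the table. These summed to 2450 to 2790 CPM in lactate and 2530 to 2840 CPM in control libraries, and most of that sum was Acan. Of the 10 tested, 2 were higher, Cd24 (2.32) and Sox9 (1.45), and 3 lower, Pax1 (−0.88), Foxa2 (−1.97) and Cdh2 (−1.11). For this and the next lists, the all-gene shares are 31.4% higher and 34.6% lower. Fibroblast markers summed to 107000 to 156000 CPM in lactate and 32700 to 38100 CPM in control libraries, with 4 of 9 higher and 3 lower. Most of that sum was Col1a1, at a mean of 124300 CPM in lactate and 31760 CPM in control libraries, while Pdgfra (−1.42), Mkx (−2.36) and Prrx1 (−1.45) were lower. Smooth muscle and pericyte markers summed to 2240 to 2750 CPM in lactate and 2160 to 2460 CPM in control libraries, with 3 of 8 higher and 4 lower. Of the 10 endothelial markers listed, only 5 were in the table. These summed to 48.6 to 65.3 CPM in lactate and 14.8 to 20.2 CPM in control libraries. That sum came almost wholly from Egfl7, while Kdr, Tek and Erg had 9, 3 and 0 counts in lactate and 0, 22 and 20 in control libraries. Of the 11 leukocyte markers listed, only 6 were in the table. These summed to 4.28 to 5.39 CPM in lactate and 9.81 to 10.8 CPM in control libraries, with Itgam and Adgre1 under 10 counts in all. The largest part of that sum was Cd14, at a mean of 2.84 CPM in lactate and 9.36 CPM in control libraries. Cd14 was called lower (−1.72), while Cd68 was called higher (1.48). The 3 platelet markers in the table, of 6 listed, summed to under 1 CPM in each library. Markers absent from the table could not be assessed. The part of these cell types in the results above was not tested, and in bulk samples fewer cells of a type and less RNA per cell cannot be told apart.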

How the data were processed

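Per the labels, 6 mRNA libraries of rat nucleus pulposus cells were sequenced. The authors deposited raw read counts per gene and FPKM (count per transcript length and library total), per the file headers, for each library. The deposited table also holds the authors' p-values, adjusted p-values and log2 fold changes. For aligner, counter and strand setting, the answer is not given in the sources used here. Mouse builds (GRCm38, mm10) stand in the submitters' processing notes although the samples are rat, so the genome used was not settled. All 47 symbols are in RefSeq's GRCr8. Overlapping or near-identical genes are uncertain.

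Counts were tested with edgeR 4.0.16 (R 4.3.3), TMM factors, filterByExpr and group as the only term. SE is the log2 fold change over the square root of the test's F. Family shares were tested with SciPy 1.17.1. Alternatives were other scalings and filters, DESeq2 1.42.0, limma 3.58.1 (voom, and trend on log2 FPKM with pseudocounts of 1 and 0.1), glmTreat at 1.2-fold, a replicate block, removal of loess trends on length or level (span 0.3), and each library left out. The fits were checked on simulated data with changes planted in some genes, in both directions alike. The simulation held no shift in scale between the groups, so it does not bear on the choice of scaling. Each member may be named. Values in each library are given for the 3 largest called rises and falls per role with a mean of at least 1 CPM and for 14 genes whatever their result; a few more were chosen after their values were seen. Members and lists were chosen with earlier results of these data known. The pairs of genes set in ratios were chosen after their values were seen. The values of 1 tested member are not reported here.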

Additional observations from a re-analysis of the deposited data

How the results depend on the processing

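Of the 41 tested members, 19 kept their direction and call in each alternative run, 29 kept their direction, and 12 changed sign in at least one. With RLE factors, DESeq2, limma-voom and no filter, 41 of 41 kept both. These data hold no value that sets the scale between libraries. Same-numbered libraries did not deviate together (correlations 0.00776, 0.0381 and 0.084), nor did every library correlate best with its own number, so the numbers were not taken to pair them. With the replicate block 20 members were higher and 15 lower (median 0.30), of all genes 4190 higher and 4624 lower, and of the partner lists 54 higher and 49 lower. It changed no member's call. With library totals, log2(FPKM + 1) and log2(FPKM + 0.1) (limma-trend), 11, 10 and 10 members were higher and 23, 23 and 24 lower, with medians of −0.58, −0.45 and −0.57. Of all genes 1726, 1781 and 1770 were higher and 8485, 8759 and 8737 lower, and of the 137 tested genes of the partner lists 26, 27 and 27 were higher and 84, 85 and 85 lower, against 55 and 53 with TMM factors. With the level trend removed 11 members (median −0.41) and 35 genes of the partner lists were higher and 21 and 63 lower. With the length trend removed the members' median was 0.78. In those 3 scalings, in the same order, the signs turned for Itga5 (−0.44, −0.45, −0.45), Itga8 (−0.58, −0.53, −0.56), Thbs2 (−0.67, −0.69, −0.69), Tnc (−0.17 in each), Parva (−0.50, −0.50, −0.51), Tln1 (−0.56, −0.56, −0.57), Grb2 (−0.017, −0.041, −0.043), Csrp1 (−0.29, −0.30, −0.30) and Trip6 (−0.32, −0.31, −0.31). With the level trend removed they turned for Itga11 (−0.070), Itga5 (−0.30), Itga8 (−0.056), Itgb1 (−0.11), Itgb4 (0.10), Itgb8 (0.38), Fn1 (−0.42), Thbs2 (−1.28), Tnc (−0.50), Parva (−0.41), Tln1 (−0.77) and Csrp1 (−0.42), and with the length trend removed for Itga3 (0.072) and Itgb4 (0.19). Beyond the construction of each setting, the cause was not tested. With each library left out in turn, 19 to 20 members were higher and 13 to 15 lower, and 5 changed their call. The lactate minus control difference in the Lamc1 share ranged from −1.73 to 0.677 percentage points. Shares of raw counts and shares over the tested members kept the sign of all 10 shares. Members with under 10 counts in each library, such as Vtn and Lamc3, are limited by depth.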
